A study of Arabidopsis thaliana with 12 samples.

Results

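The genes described here are 4 pentatricopeptide repeat genes of Arabidopsis thaliana, AT3G13150, AT2G46050, OTP70 (AT4G25270) and AT3G26630, out of 691 genes that had an array probe annotated to them alone. They were chosen by their measured response: AT3G13150 and AT2G46050 were higher, and OTP70 and AT3G26630 lower, after medium with sucrose than in water. The differences between the groups are therefore given as a description, without a test. Each of the 4 genes had 1 probe of its own, so no choice between probes was needed. AT3G26630 also stands on 1 further probe together with another gene, which was not used.

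Pentatricopeptide repeat proteins are a large family in land plants, encoded in the nucleus and mostly imported into plastids or mitochondria. Each repeat is a short helical hairpin, and a row of them binds RNA in a sequence-specific way. Members of the family act in the splicing, editing, cleavage, stability and translation of organelle transcripts. OTP70 (its symbol stands for organelle transcript processing) is a plastid member needed for splicing of the transcript of rpoC1, a subunit gene of the plastid-encoded RNA polymerase. The annotation used here gives the other genes by locus only, so no role is stated for them.

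Total RNA was measured in 12 samples of wild-type plants of ecotype Wassilevskija. For 6 samples the plants had been kept in MS medium with sucrose at 60 mM for 6 h, and the other 6 are labelled water, with no time given. MS is the Murashige and Skoog mixture of mineral salts for plant culture, so the groups differ in salts as well as in sugar. Which organ was taken, how old the plants were and what the sample numbers 1 to 6 stand for is not stated in the labels. They also do not say whether samples were grown separately, and a p-value here reflects sample-to-sample spread that could be technical. Of 6 green tissue marker genes 3 had a probe of their own, and all 3 were above 0 in every sample, while none of 3 root and none of 3 seed markers had one. As only 13.6% of all values on the array were 0, this does not tell the organ. Fewer cells of a type and less RNA per cell cannot be told apart in such samples.

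The middle of the array moved with the treatment, which bears on each value below. The median deposited intensity of the 3439 probes, in arbitrary units, lay at 0.309 to 0.339 in the 6 samples with sucrose, against 0.171 to 0.188 in the 6 water samples. The mean of these medians was 1.83-fold higher with sucrose. A gene of equal intensity in both groups is thus lower with sucrose relative to the middle of the array. The mean intensity of the arrays differed less, at 0.964 to 1.005 with sucrose against 0.922 to 0.958 in water. Differences are therefore given as deposited intensities and as log2 differences, sucrose minus water, after quantile normalization of log2(intensity + 0.0718), with the SE of the limma fit. The added offset, the 10th percentile of the values above 0, makes the fold change of dim probes come out smaller than the ratio of their intensities.

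AT3G13150 showed the greatest intensity ratio of the 4 genes. With sucrose its intensity had a lowest value of 0.215, a median of 0.331 and a highest value of 0.357, against 0.0517, 0.0851 and 0.111 in water. The 6 samples with sucrose all lay above the 6 water samples, and samples 1 and 5 were the lowest with sucrose. The mean was 0.304 ± 0.0602 with sucrose and 0.0851 ± 0.0217 in water (SD, n = 6 each), a ratio of 3.57. The water values lie around the offset, and with it the log2 difference was 1.25 before scaling between arrays, against a log2 ratio of 1.84 for the mean intensities. After quantile normalization it was 0.70 (SE 0.14), or 1.63-fold higher. On the normalized scale sample 5 with sucrose, at -2.14, fell just inside the water range, whose highest value was -2.13 in sample 1. Divided by the median of its own array, AT3G13150 was at 0.943 ± 0.198 with sucrose and 0.481 ± 0.118 in water (SD, n = 6 each). The gene was thus around the middle of the array with sucrose, and below it in each water sample.

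AT2G46050 was also higher with sucrose. Its intensity with sucrose had a lowest value of 0.342, a median of 0.515 and a highest value of 0.772, against 0.144, 0.163 and 0.282 in water. These ranges did not overlap either, and samples 5 and 6 were the highest of both groups. The mean was 0.546 ± 0.159 with sucrose and 0.189 ± 0.0567 in water (SD, n = 6 each), a ratio of 2.89. After normalization the difference was 0.58 (SE 0.18), the largest SE of the 4 in this fit. With the sample number as a block in the fit the SE was 0.10, below the 0.17 of AT3G13150. With samples of adjacent number averaged it was 0.25. On the normalized scale the groups overlapped, since 3 of the 6 samples with sucrose stood above all water samples. Each sample with sucrose was higher than the water sample of the same number, by 0.20 to 0.87 on the log2 scale, though the labels state no pairing.

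OTP70, the plastid splicing factor gene, went the other way relative to the rest of the array. Its intensity with sucrose had a lowest value of 0.312, a median of 0.392 and a highest value of 0.540, against 0.465, 0.488 and 0.571 in water. The deposited ranges overlapped: samples 2, 3, 5 and 6 with sucrose lay below all water samples, and samples 1 and 4 did not. The mean was 0.407 ± 0.0955 with sucrose and 0.507 ± 0.0479 in water (SD, n = 6 each), a ratio of 0.804. The spread was wider with sucrose, with a coefficient of variation of 23.4%, against 9.44% in water. After normalization the groups separated, with a highest value of -1.03 with sucrose and a lowest value of -0.65 in water, and the difference was -0.92 (SE 0.13), or 1.89-fold lower. Relative to the array median, OTP70 was at 1.26 ± 0.315 with sucrose and 2.88 ± 0.363 in water (SD, n = 6 each). Its own deposited intensity thus differed by less than its place on the array.

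AT3G26630 was the only one of the 4 genes whose deposited intensity was lower with sucrose in all 6 same-numbered pairs. Its intensity with sucrose had a lowest value of 5.75, a median of 7.41 and a highest value of 8.56, against 9.32, 11.6 and 13.2 in water. The groups did not overlap, and samples 5 and 6 were the lowest of both groups. The mean was 7.32 ± 1.13 with sucrose and 11.2 ± 1.42 in water (SD, n = 6 each), a ratio of 0.651. The normalized difference was -0.60 (SE 0.11), or 1.52-fold lower. Normalized differences between samples of the same number, which the labels do not call pairs, ran from -0.73 to -0.51, the narrowest range of the 4 genes.

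**Figure D1:**
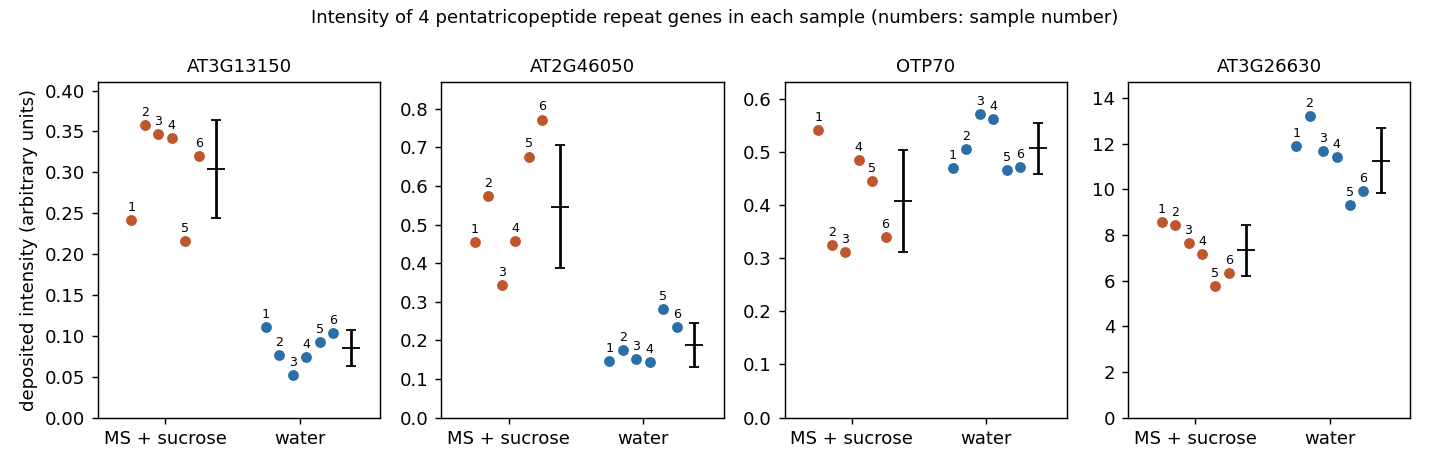
Deposited intensity in arbitrary units (vertical axis, from 0, a scale of its own for each gene) of the 4 genes in the 6 samples with MS medium and sucrose and the 6 water samples; points carry the sample number and the black bars are the mean ± SD. The groups are apart for AT3G13150, AT2G46050 and AT3G26630, while for OTP70 samples 1 and 4 with sucrose reach into the water range of 0.465 to 0.571.

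Over the array, separation of deposited intensities was more frequent upwards than downwards. On deposited intensities, 29.5% of all probes were higher with sucrose without overlap and 4.36% were lower without overlap. After normalization these shares were 10.3% and 12.6%. Among the 4 genes, 2 were higher and 1 lower without overlap on the deposited scale, and 0 higher and 2 lower after normalization. As the genes were chosen by this contrast, nothing is read from these counts. Of all probes, 11.1% had a greater normalized difference than AT3G13150 and 14.6% a greater one than AT2G46050, while 6.40% had a lower one than OTP70 and 14.5% a lower one than AT3G26630.

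The ratio between the groups depended on brightness over the array, so each gene is set beside the probes of its own brightness decile. The log2 ratio of mean intensities was 1.84 for AT3G13150, against a median of 0.90 over the 344 probes in its decile of brightness (decile 4, counted from the dimmest). For AT2G46050, in decile 7, it was 1.53 against 0.94. For OTP70, in decile 8, it was -0.32 against 0.74, and for AT3G26630, in decile 10, it was -0.62 against 0.09. AT3G26630 thus lay in a part of the array whose median ratio was near 0, and the other 3 in parts that were brighter with sucrose.

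The direction of all 4 genes was the same under each of 4 scalings, but their sizes were not. With cyclic loess the differences were 0.63 for AT3G13150, 0.55 for AT2G46050, -0.91 for OTP70 and -0.47 for AT3G26630. On the log2 scale of the deposited values, with no scaling between arrays, they were 1.25, 1.23, -0.29 and -0.62 in the same order, where the median of all probes was 0.38. With each array centred on its median they were 0.59, 0.56, -0.96 and -1.29, where the median of all probes was -0.29. The differences of AT3G13150, AT2G46050 and OTP70 thus changed most with the arrays left unscaled, and that of AT3G26630 with median centring.

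**Figure D2:**
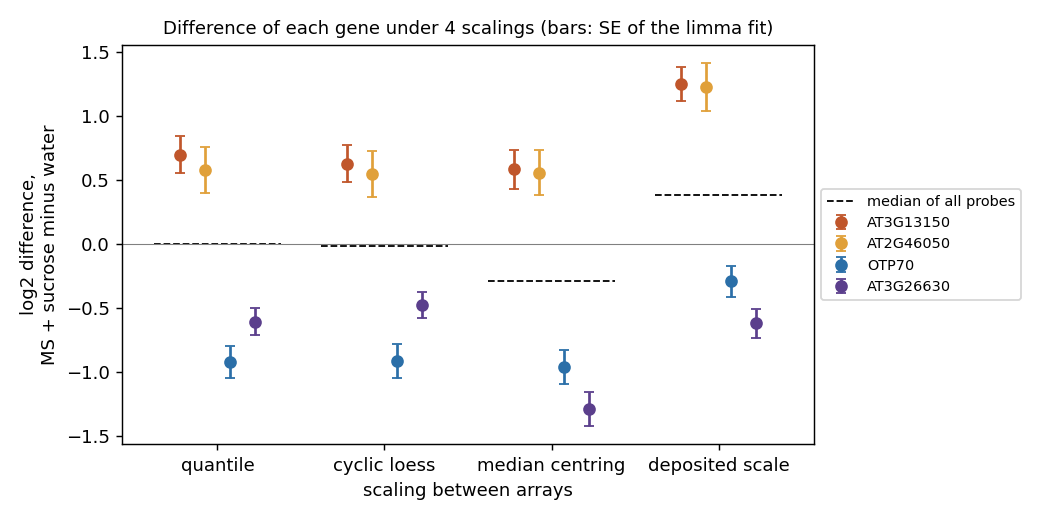
Log2 difference, MS with sucrose minus water (vertical axis), of the 4 genes under 4 scalings between arrays (horizontal axis); bars are the SE of the limma fit on 12 samples and dashed lines the median of all 3439 probes. AT3G13150 and AT2G46050 stay above 0 and OTP70 and AT3G26630 below it, with OTP70 nearest to 0 on the deposited scale at -0.29.

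The order of the samples inside each group was not used to choose the genes. Deviations of the normalized log2 values from the group mean followed the sample number for AT2G46050 and AT3G26630. AT3G26630 was below its group mean in samples 5 and 6 of both groups, by 0.37 and 0.17 with sucrose and by 0.25 and 0.15 in water, and above it in samples 1 to 4 of both. AT2G46050 was above its group mean in samples 5 and 6 of both groups, by 0.30 and 0.49 with sucrose and by 0.41 and 0.21 in water. What samples 5 and 6 share beyond their numbers is not stated, and its part in these values was not tested. AT3G13150 and OTP70 showed no such order: AT3G13150 was lowest in sample 5 with sucrose and in sample 3 in water, and OTP70 sample 3 was lowest with sucrose and highest in water.

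The deviations of AT2G46050 and AT3G26630 ran against each other, with a Pearson r of -0.75 and a Spearman rho of -0.61 over the 12 samples. That relation rests on samples 5 and 6: without them r was 0.37 over 8 samples, though it was -0.64 over the 10 samples left without the 2 farthest from the median of AT2G46050. AT3G13150 and OTP70 also ran against each other, at an r of -0.59 and a rho of -0.57, and here r was -0.64 without samples 5 and 6 and -0.60 without the 2 samples farthest from the median of AT3G13150. For this pair r was -0.50 over the 6 samples with sucrose and -0.84 over the 6 water samples. AT3G13150 and AT3G26630 had an r of 0.25, which was 0.72 with sucrose and -0.32 in water. AT2G46050 and OTP70 had an r of -0.30, which was -0.14 with sucrose and -0.76 in water. OTP70 and AT3G26630 had an r of 0.26, which was 0.13 with sucrose and 0.60 in water. AT3G13150 and AT2G46050 had an r of -0.06, which was -0.34 with sucrose and 0.33 in water. The 12 points share arrays, and their deviations were correlated across probes. Samples 1 and 2, 3 and 4, and 5 and 6 correlated at 0.133 to 0.157 with sucrose and 0.121 to 0.309 in water, against -0.367 to -0.185 and -0.447 to -0.134 for the other combinations. Deviations from the mean of the same group lean towards negative correlation by construction. The correlations of the 6 pairs of genes are therefore a description, with no p.

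**Figure D3:**
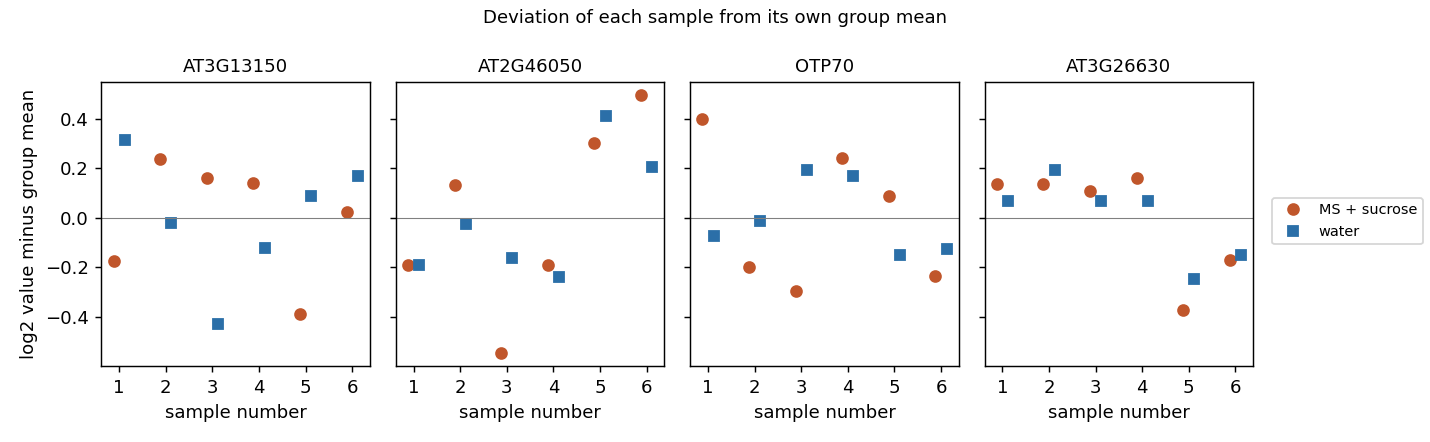
Normalized log2 value minus the mean of the sample's own group (vertical axis) against sample number (horizontal axis), for the 4 genes; circles are MS with sucrose and squares water. Samples 5 and 6 are above 0 for AT2G46050 and below 0 for AT3G26630 in both groups, and AT3G13150 and OTP70 show no shared order of the numbers.

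Among 669 other genes whose own probe varied, those with the most similar deviations over the 12 samples differed for each of the 4. For AT3G13150 they were AT2G27290 (r = 0.77), AT1G76450 (r = 0.76) and AT3G59300 (r = 0.74). For AT2G46050 they were AT2G06040 (r = 0.90), AT1G73090 (r = 0.87) and AT2G47360 (r = 0.84). OTP70 was closest to AT4G30680 (r = 0.73), AT5G03900 (r = 0.70) and AT3G19120 (r = 0.69). AT3G26630 was closest to AT5G47890 (r = 0.91), AT2G21530 (r = 0.91) and AT3G02690 (r = 0.90). Each r was picked as among the highest of 669 on only 12 samples, a choice that favours high values. The r that unrelated genes reach by this choice was not tested, so no relation is read from these values. AT2G46050 and AT3G26630 also followed the sample number, and the part of that order in their r was not tested. Of these 12 genes, 9 had a normalized difference of the same sign as the gene they followed and 3 of the opposite sign. Nothing is read from this count, as some of the differences were close to 0. The share of each sign over all genes was not taken. Around AT3G13150 the differences were 2.25 for AT1G76450, 1.22 for AT3G59300 and -0.07 for AT2G27290. Around AT2G46050 they were 0.85 for AT2G06040, 0.73 for AT1G73090 and -0.52 for AT2G47360. Around OTP70 they were -0.53 for AT5G03900, -0.19 for AT3G19120 and 0.07 for AT4G30680. Around AT3G26630 they were -1.01 for AT5G47890, -0.10 for AT2G21530 and -1.18 for AT3G02690.

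Of the rest of the family, 17 genes had a probe of their own. A list of 82 loci contributed 4 of them, and 13 more were recognised by locus once the probe annotation had been read, from knowledge of the family. The tables used here carry no product names, so the membership of these 13 was not checked, and the 6 that fell are all among them. After quantile normalization 0 of the 17 rose, 6 fell and 11 did not pass an adjusted p of 0.05 in limma, Benjamini-Hochberg adjusted over all 3439 probes. Of all probes, 18.1% were higher and 19.3% lower by the same rule. At an unadjusted p under 0.05, 0 were higher and 7 lower. The median difference of the 17 was -0.14, against 0.00 over all probes. The 17 leave out the 4 genes, which were chosen by this contrast. Among those left out are AT3G13150 at 0.70 and AT2G46050 at 0.58, while the highest of the 17 was 0.28. The count of 0 that rose and the median are partly set by that choice, so no shift of the family is read from them. Of the 4 from the list of 82 loci, 0 rose and 0 fell, and at an unadjusted p under 0.05 in limma 0 were higher and 1 lower. The share of all probes at an unadjusted p was not taken, so nothing is read from the unadjusted counts.

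AT2G19280 fell the most, by 0.95 (SE 0.06, adjusted p = 3.11e-07 by limma), with an intensity of 1.14 ± 0.0516 with sucrose and 1.84 ± 0.114 in water (SD, n = 6 each). It was lower in 6 of 6 same-numbered pairs on both the deposited and the normalized scale, without overlap, a behaviour of the same kind as that of AT3G26630. AT3G51320 fell by 0.71 (adjusted p = 0.00249 by limma), with an intensity of 0.942 ± 0.247 with sucrose and 1.17 ± 0.128 in water (SD, n = 6 each). Like OTP70, it overlapped on the deposited scale and not after normalization. Its call was lost on the deposited scale, at -0.32 (adjusted p = 0.0971 by limma), and with samples of adjacent number (1 and 2, 3 and 4, 5 and 6) averaged within each group (adjusted p = 0.0650 by limma, or 0.0698 with a replicate block). AT4G04370 was lower by 0.62 on the normalized scale (adjusted p = 0.00557 by limma), while its intensity was 0.489 ± 0.133 with sucrose and 0.481 ± 0.0275 in water (SD, n = 6 each). On the deposited log2 scale it was at -0.01 and did not pass (adjusted p = 0.986 by limma).

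AT3G49740 and AT4G21170 fell only relative to the array. AT3G49740 was at -0.46 after normalization (adjusted p = 0.00539 by limma) and at 0.07 on the deposited scale, where it did not pass. AT4G21170 was at -0.29 after normalization (adjusted p = 0.00254 by limma) and at 0.21 on the deposited scale, where it passed as higher (adjusted p = 0.00606 by limma). AT1G31790 was at -0.81 (SE 0.28, adjusted p = 0.0424 by limma), with an intensity of 0.104 ± 0.0317 with sucrose and 0.157 ± 0.0840 in water (SD, n = 6 each). Its call was lost in 9 of the 12 fits that left out 1 sample, where the adjusted p ran from 0.00812 to 0.0885; the 3 that kept it left out sample 2 with sucrose, or water sample 3 or 5.

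The 11 that did not pass included several with hardly any signal. AT4G14050 and AT2G30100 were listed at 0 in all 12 samples, and OTP85, a plastid RNA editing factor gene, and AT3G22690 in 10 and 11 of them. CRR21 (chlororespiratory reduction 21), a gene for a plastid editing factor of the NDH complex transcript ndhD, was measured in every sample, at 0.561 ± 0.176 with sucrose and 0.385 ± 0.107 in water (SD, n = 6 each), and had a normalized difference of -0.18 (adjusted p = 0.568 by limma). Nearest to the threshold were AT3G22150 at -0.60 (adjusted p = 0.0964 by limma), AT5G15280 at -0.14 (adjusted p = 0.143 by limma), which was listed at 0 in 7 of 12 samples, and AT5G02830 at 0.28 (adjusted p = 0.312 by limma), listed at 0 in 8. AT3G22150 passed without sample 2 with sucrose, its highest there at an intensity of 0.227, at -0.78 (adjusted p = 0.0147 by limma).

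**Figure D4:**
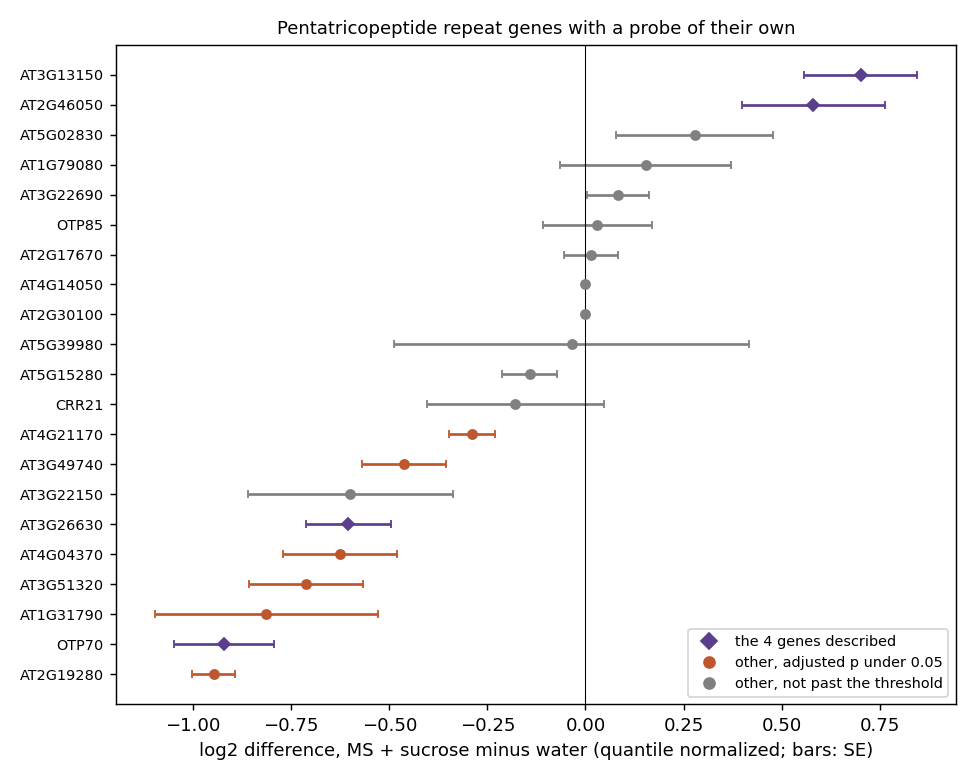
Quantile-normalized log2 difference, MS with sucrose minus water (horizontal axis), of 21 genes taken as pentatricopeptide repeat genes, each with a probe of its own. Bars are the SE of the limma fit on 12 samples. The membership of 13 of them, among which are the 6 others that fell, was not checked. AT3G13150 and AT2G46050 have the 2 highest values, and OTP70 at -0.92 and AT3G26630 at -0.60 lie among the 6 other genes that fell, of which AT2G19280 at -0.95 is lowest.

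The counts among the 17 depended on the scaling. With cyclic loess 0 rose and 6 fell, where 18% of all probes were higher and 18.2% lower. On the deposited scale 3 rose, AT2G17670 at 0.70 (adjusted p = 1.82e-06 by limma), AT1G79080 at 0.75 (adjusted p = 0.0144 by limma) and AT4G21170, and 1 fell, AT2G19280, where 44.2% of all probes were higher and 6.89% lower. With median centring 0 rose and 12 fell, where 14.2% of all probes were higher and 37% lower, and 8 fell when the 4 probes at 0 in 10 or more samples were left out. With adjacent numbers averaged in this way, 0 rose and 2 fell, AT2G19280 (adjusted p = 0.00324 by limma) and AT4G04370 (adjusted p = 0.0189 by limma), where 10.1% of all probes were higher and 11.7% lower.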

How the data were processed

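The values the authors deposited are spot intensities on a linear scale, for 3439 probes in 12 samples. Background correction, scaling and array type are stated in no label used here. Of all values, 13.6% were exactly 0, and 2 to 8 probes per sample stood at a common ceiling of 100. The number of arrays limits the precision. Genes were named from the platform annotation (692 probes with 1 gene, 870 with several, 1877 unnamed here), updated through gene identifiers to TAIR10.1 symbols.

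Values were used as log2(intensity + 0.0718), quantile normalized and fitted with lmFit and a trended eBayes of limma 3.58.1 (R 4.3.3; 6 against 6, two-sided, Benjamini-Hochberg over all probes, threshold 0.05). The fit was tested on simulated normalized values with independent noise in each sample. That test cannot tell how the calls hold where samples are correlated, as they were here. Figures were drawn with matplotlib 3.10.9.

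The members and lists were chosen with earlier results of these data known. The genes named are the 4 members, each other family gene past the threshold with the 3 nearest to it, and for each member the 3 genes with the most similar within-group deviations. Genes at 0 in most samples, CRR21 and the 2 further genes that passed as higher on the deposited scale were added after their values were seen.

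Same-numbered samples deviated together, with correlations across probes of 0.174 to 0.390 in the 6 pairs. Samples of unlike number were not compared between the groups, so whether the numbers pair the samples was not tested. The labels themselves state no pairing. Alternatives were other scalings, another offset, zeros as missing, a filter on dim probes, a replicate block, averaged adjacent numbers, no trend, and each sample left out.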

Additional observations from a re-analysis of the deposited data

Results flagged for a closer look

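Among 20 sets of 6 samples, those of the 4 genes and of the 6 other family genes that passed, 2 had 1 sample far from the other 5. This was judged on deposited intensities, by the gap as a share of the range (against Dixon's limit for 6 samples). Chance gives about 1 such set. The normalized values, on which the calls rest, were not judged in this way. AT2G19280 was highest in water sample 2, at an intensity of 2.06 against 1.73 to 1.85 in the other water samples, a gap of 0.63 of the range. AT4G04370 was lowest in water sample 1, at 0.428 against 0.479 to 0.503, a gap of 0.683 of the range. Neither is among the 4 genes described, and in both genes the call held in each of the 12 fits that left out 1 sample.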

How the results depend on the processing

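The 4 genes kept their direction under every alternative run. Their difference moved by more than the spread between replicates on the deposited scale for AT3G13150 (1.25), AT2G46050 (1.23) and OTP70 (-0.29), and with median centring for AT3G26630 (-1.29). Leaving out 1 sample at a time gave 0.62 to 0.77 for AT3G13150, 0.48 to 0.69 for AT2G46050, -1.003 to -0.87 for OTP70 and -0.66 to -0.54 for AT3G26630. Of the 17 other family genes, 6 lower and 0 higher in the report, 3 were higher and 1 lower on the deposited scale, 12 lower with median centring, and 2 lower with adjacent numbers averaged, with or without a replicate block. With the sample number as a replicate block 6 were lower and 0 higher, the same 6 genes, and no call among the 17 changed. The share of all probes called was not taken for fits with a replicate block or with 1 sample left out. Of the 4 from the list of 82 loci, 0 were lower, against 3 with median centring and 0 to 1 when 1 sample was left out. AT3G49740 and AT4G21170 changed sign on the deposited scale, to 0.0667 and 0.208. The deposited scale leaves in, and median centring takes out, a shift of the array median, and averaging leaves 3 values a group. Median centring also moved AT4G14050 and AT2G30100, listed at 0 in all 12 samples, to -0.67. Dim probes set a further limit: zeros as missing left 11 of the 17, and the filter on dim probes 7.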
